A study of Mus musculus with 4 samples.

Results

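Mesenchymal cells made up 61 of the 7471 mouse islet cells kept (0.816%, exact binomial 95% interval 0.625% to 1.05%). They were chosen by their transcripts. A kept cell had 200 to 4000 detected genes and at most 12% of its unique molecular identifiers (UMIs, each standing for 1 captured transcript) from mitochondrial genes. A mesenchymal cell also had UMIs of at least 3 of the 6 markers Col1a1, Col1a2, Col3a1, Dcn, Pdgfrb and Mgp. Insulin transcripts (Ins1 and Ins2) made up less than 2% of its UMIs, and glucagon, somatostatin and pancreatic polypeptide transcripts (Gcg, Sst and Ppy) less than 1% each. Fewer than 2 endothelial markers (Pecam1, Plvap, Flt1) and fewer than 2 macrophage markers (C1qa, C1qb, Tyrobp) were detected in it. The islets came from adult male C57BL/6 mice (C57BL6/J in the study's methods), for which the labels name no genetic change. They were pooled over several animals, divided into 4 samples, and left untreated or exposed ex vivo for 6 h to interleukin-1β (IL-1β), to interferon-γ (IFN-γ) or to both cytokines. Each sample gave 1 droplet-based single-cell RNA-seq library, so the cells of a library are not replicates and no difference between conditions has a replicate check or a p-value.

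The stroma of the islet is formed by pericytes, which wrap the capillaries, and by fibroblasts, which lie around vessels, ducts and the islet border. Both make collagens, proteoglycans and the basement membrane, and pericytes also contract and signal to the endothelium. IL-1β signals through its receptor to the transcription factor NF-κB, whose targets include chemokines that attract neutrophils and monocytes. IFN-γ signals through its receptor and JAK kinases, and the genes it induces include IRF1, the guanylate-binding proteins, the MHC class I pathway and the T cell chemokines CXCL9 and CXCL10. Stromal cells of many organs are known to answer both cytokines.

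The untreated library held 10 mesenchymal cells, the IL-1β library 18, the IFN-γ library 22 and the library with both cytokines 11, and values are given below in this order. These were 0.657% of 1521 kept cells (0.316% to 1.21%), 0.892% of 2018 (0.529% to 1.41%), 1.04% of 2122 (0.651% to 1.57%) and 0.608% of 1810 (0.304% to 1.08%), with intervals that overlap throughout. Median depth per mesenchymal cell was 7368, 6677, 7784.5 and 8162 UMIs, and the summed depth was 89355, 135724, 183095 and 96827 UMIs. Levels are given in CPM, the summed UMIs of a gene per 1000000 UMIs of these totals. Their exact Poisson 95% intervals, and the exact conditional binomial 95% intervals of ratios, cover counting error only and not differences between cells or cultures. A gene with no UMI may lie at up to 33.6, 22.1, 16.4 and 30.98 CPM, the level of 3 UMIs, and a ratio against 0 UMIs is given as a lower bound from that level. The libraries shared 16 barcodes over all pairs, none of them a mesenchymal cell.

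The marker limit divides a continuum. Exactly 3 of the 6 markers were found in 35 of the 61 cells, 4 in 10, 5 in 7 and all 6 in 9. Just outside the limit, 28 kept cells had 2 markers and met the other limits. Median depth just inside (exactly 3 markers) was 7368, 4802.5, 5277.5 and 8162 UMIs, against 6389, 3829, 7941 and 6401.5 UMIs just outside. A further 38 barcodes met the marker limits but had more than 4000 genes, with 113756, 277391, 484464 and 63187 UMIs in all, in every library but the last more than the cells kept. Counting them in ended part of the ratios past 4-fold, and where a call stated below was lost its value with these barcodes stands in the same paragraph. Ratios and lower bounds below are those of the kept cells, and some that stayed past 4-fold were smaller with these barcodes. The 6 markers chose the cells, so their levels are a description. Mgp, a matrix protein that inhibits calcification, was the most abundant at 51715, 5445, 11119.9 and 8593 CPM. Col3a1, a fibrillar collagen chain, stood at 2171, 3293, 2753 and 475 CPM, and Col1a2 at 1298, 1399.9, 1196 and 103 CPM. Col1a1 was found in 1, 7, 10 and 1 cells at 873, 2019, 1617 and 145 CPM. Dcn, the small proteoglycan decorin, stood at 414, 1731, 349.5 and 299.5 CPM, and Pdgfrb, the PDGF receptor of pericytes, at 705, 398, 535 and 269 CPM. The 6 markers together reached 1600.2, 8.48, 740.2 and 176 CPM in endothelial cells, and no more than 19.1 CPM in macrophages.

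Markers of other cells that an islet preparation can hold were then counted. The rule itself limited Pecam1, Plvap, Flt1, C1qa, C1qb, Tyrobp and the hormone transcripts, so only markers outside it bear on the label. Its endothelial and macrophage limits left out 21 cells with enough mesenchymal markers, and its hormone limits 2. Of 11 macrophage markers only Csf1r was seen, with 1 UMI in each of the IFN-γ and combined libraries. Lyz2, Cd68 and Ptprc, which the rule did not use, were at 0 UMIs in all 4. So were C1qa, C1qb and Tyrobp, which it limited. No UMI was found of 7 lymphocyte or 8 mesothelial markers. Of 11 endothelial markers the sum was 257, 140.0, 131 and 217 CPM, against 16244, 14008, 10726 and 9087 CPM in the endothelial cells. Pecam1, Plvap and Flt1 are in this sum and chose both classes, so the contrast was partly set by selection. Outside the rule, Cdh5, Kdr, Cldn5 and Tie1 were at 0 UMIs, as was Pecam1 within it. Esam, a junction protein that pericytes also make, gave most of the sum in mesenchymal cells. The endocrine list summed to 5584, 1275, 2796 and 1157 CPM. Ins2 was found in all 61 cells at 3402, 560.0, 1458 and 671 CPM, against 297946, 168351, 207969 and 256402 CPM in β cells, and endothelial cells held 4100.2, 899, 2134 and 946 CPM. Insulin transcripts in mesenchymal cells were thus 1.11%, 0.308%, 0.676% and 0.256% of their β-cell level, which serves below as the share that free β-cell RNA would give.

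Pericyte and fibroblast markers were counted in each cell. At least 2 of the pericyte markers Rgs5, Cspg4, Notch3, Kcnj8, Abcc9 and Higd1b were found in 9 of 10 untreated cells (exact binomial 95% interval 55.5% to 99.7%), 7 of 18 with IL-1β (17.3% to 64.3%), 13 of 22 with IFN-γ (36.4% to 79.3%) and 5 of 11 with both (16.7% to 76.6%). The intervals overlap, but overlap does not show equal shares, and a difference in makeup was not tested. Rgs5, one of these markers, was itself lower in the treated libraries. At least 2 of the fibroblast markers Pdgfra, Lum, Dpt, Dpep1, Clec3b, Col14a1 and Serpinf1 were found in 1, 6, 2 and 0 cells. Neither set reached 2 markers in 0, 6, 8 and 6 cells. Among those without either set, 4 cells (2 from the IFN-γ library and 1 from each of the other treated libraries) carried 5 or 6 of 8 Schwann cell markers, among them Sox10, Foxd3 and Cdh19, and no UMI of Mgp, Igfbp5 or Rgs5. Here the data went against the label for these 4 cells. Levels in the cells with 2 or more pericyte markers, 74319, 50037, 113838 and 41349 summed UMIs, are therefore given beside the results they bear on, and called those of cells with pericyte markers. The other cells had 1 or none.

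**Figure D1:**
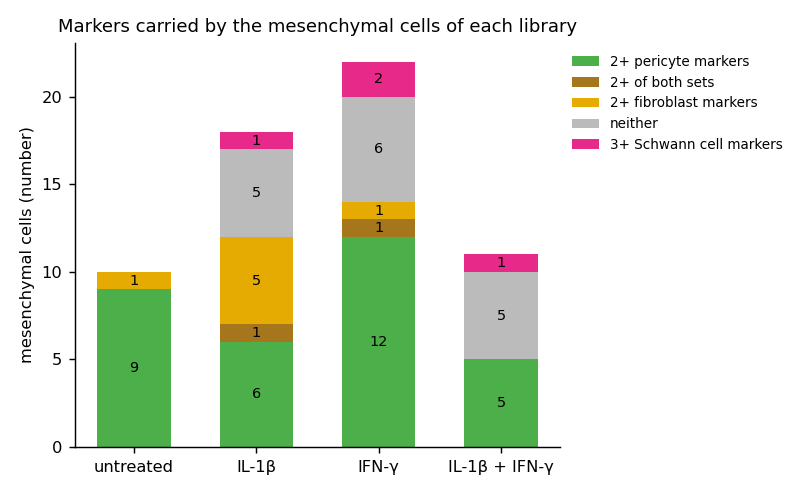
Number of mesenchymal cells in each library (bars, cells on the vertical axis), divided by the markers they carried. Cells with 2 or more pericyte and fewer than 2 fibroblast markers were 9 of 10 without treatment and 6, 12 and 5 with IL-1β, IFN-γ and both, and the 4 cells with Schwann cell markers all came from treated libraries.

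The comparison of IL-1β with untreated cells asks which transcripts of the stroma differ after this cytokine. Chemokines for monocytes and neutrophils led the higher genes, and the 6 leading chemokines had no UMI in the untreated cells. Of 1481 genes measured (at least 15 UMIs in the higher library, in at least 20% of its cells), 55 were higher by 4-fold or more (3.71%) and 46 were lower by 4-fold or more (3.11%). These counts were 123 and 35 with the barcodes above 4000 genes, and 29 and 10 after thinning to 2000 UMIs per cell. Of 23 listed chemokines 7 were measured and 7 were past 4-fold. A gene at or near 0 UMIs without treatment is measured only where the treated library is high, which fixes its direction, so counts and medians of such lists describe the measured genes here and in the other comparisons and support nothing further. Summed over the list, chemokines made up 33.6, 39838, 13894 and 81041 CPM.

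Ccl2, which attracts monocytes (chr11:82035571-82037453, plus strand, mm10), stood at 0, 15281, 945 and 12114 CPM. With IL-1β its 2074 UMIs came from 15 of 18 cells, and the level was at least 455-fold higher than without treatment, where none of 10 cells had a UMI. Cxcl1, which attracts neutrophils (chr5:90891241-90893115, plus strand), stood at 0, 11722, 857 and 14232 CPM and was found in 17 of 18 cells with IL-1β, at least 349-fold higher. Both chemokines were thus high with IL-1β and with both cytokines, and low or absent in the other libraries. Other CXC genes of chromosome 5 were high as well. Cxcl5 was at least 157-fold higher at 5261 CPM (4882 to 5661), Cxcl3 at least 63.6-fold at 2137 CPM (1898 to 2397) and Cxcl2 at least 43.9-fold at 1474 CPM (1276 to 1693). Ccl7, next to Ccl2 on chromosome 11, reached 3065 CPM (2778 to 3374) in 12 cells, at least 91.3-fold higher. Cxcl16, a membrane-bound chemokine, was at least 8.12-fold higher at 273 CPM (192 to 376). Ccl11, the eosinophil chemokine eotaxin, had 0, 26, 52 and 0 UMIs in 0, 3, 6 and 0 cells, and Cxcl14 had 1, 45, 2 and 0 UMIs in 1, 3, 1 and 0 cells, both from too few cells with IL-1β to be measured. With the barcodes above 4000 genes, Ccl11 stood at 4.92, 583, 180 and 81.2 CPM. Cxcl14 then stood at 4.92, 186, 310 and 0 CPM, highest with IFN-γ. Ccl3, Ccl4, Ccl12, Ccl20 and Cxcl13 had no UMI in any library, nor had Cxcl15, which lies between Cxcl3 and Cxcl1.

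Thinned to 2000 UMIs per cell, Ccl2 was found in 0 of 10, 15 of 18, 2 of 21 and 9 of 11 cells and Cxcl1 in 0 of 10, 15 of 18, 1 of 21 and 8 of 11. In β cells of the IL-1β library, with a median of 8567.5 UMIs per cell, Ccl2 was found in 17.4% of cells at 136 CPM and Cxcl1 in 28.5% at 264 CPM. At the insulin ratio of that library, free β-cell RNA would give 0.418 CPM of Ccl2 and 0.813 CPM of Cxcl1 in mesenchymal cells. With the barcodes above 4000 genes counted too, Ccl2 stood at 93.5, 7230.4, 637 and 9912 CPM, Cxcl1 at 54.2, 4609, 244 and 9668 CPM and Cxcl5 at 83.7, 4113, 357 and 5468 CPM, so that the untreated level was then above 0. Ccl7 then stood at 44.3, 1532, 192 and 1249.9 CPM and Cxcl16 at 49.2, 215, 118 and 294 CPM. Both ratios with IL-1β were below the bounds given above but past 4-fold. Cxcl2 and Cxcl3 still had no UMI without treatment.

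Secreted cytokines formed a second group. Of 12 measured genes of the list of cytokines and growth factors, 4 were past 4-fold and higher and none lower, with a median log2 ratio of 0.55. Over all genes measured, 3.71% were higher and 3.11% lower, with a median of 0.16. Il6, the pleiotropic inflammatory cytokine (chr5:30013114-30019981, plus strand), had no UMI without treatment and stood at 2991 CPM (2707 to 3297) in 14 of 18 cells with IL-1β, at least 89.1-fold higher. Il11, a relative of Il6 made by stromal cells, stood at 369, 6285, 552 and 3336 CPM, 17.02-fold (12.02 to 24.9) higher with IL-1β. Lif, of the same family, was 5.27-fold (2.39 to 13.7) higher and was found in 15 of 18 cells against 2 of 10. With the barcodes above 4000 genes counted too, Il11 stood at 2516, 3946, 1799 and 2849.8 CPM, 1.57-fold higher with IL-1β, and Lif was 3.93-fold higher, so that neither ratio stayed past 4-fold. Il6 then stood at 44.3, 1215, 98.9 and 2406 CPM. Tslp, an alarmin that acts on dendritic cells, was 61.2-fold (10.7 to 2444) higher at 685 CPM (553 to 839), but 1 of its 5 cells held 78.5% of the 93 UMIs. Tnf and Il1b had no UMI in any library.

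Genes of the prostaglandin, oxidative and NF-κB groups followed. Ptgs2, the inducible cyclooxygenase, had 0, 178, 13 and 110 UMIs in 0, 11, 5 and 7 cells, and with IL-1β it stood at 1311 CPM (1126 to 1519), at least 39.1-fold higher. Counting the barcodes above 4000 genes, it stood at 113, 799, 211 and 725 CPM. The untreated level was then above 0 and the IL-1β ratio below that bound, though past 4-fold. Ptges, the prostaglandin E synthase downstream of Ptgs2, was 11.5-fold (2.96 to 98.9) higher in the kept cells. Sod2, the mitochondrial superoxide dismutase, stood at 123, 1790.4, 836 and 3584 CPM, was found in all 18 cells with IL-1β and was 14.5-fold (7.99 to 29.5) higher. Cd44, the hyaluronan receptor, was 18.1-fold (4.78 to 153) higher. With the barcodes above 4000 genes, Cd44 stood at 98.47 CPM without treatment and 442.98 CPM with IL-1β, and Sod2 at 172.3 and 1033.6 CPM. Both ratios were then smaller but still past 4-fold. Of the 14 genes of this list 5 were measured and 4 passed 4-fold, beside 3.71% of all genes, while Tnfaip6 stood at 44.8, 147, 81.9 and 30.98 CPM. Beside the same 3.71% of all genes, 3 of 6 measured NF-κB genes passed 4-fold. They were Nfkbia, the inhibitor IκBα (6.42-fold, 3.102 to 15.4), Nfkb1, the p105 precursor of p50 (4.703-fold, 2.12 to 12.3), and Tnip1, a partner of A20 (4.94-fold, 1.15 to 44.5). None of the 3 stayed past 4-fold when the barcodes above 4000 genes were counted, at 3.399-fold, 3.499-fold and 1.62-fold. Timp1, an inhibitor of matrix metalloproteinases, stood at 179, 3109, 1016 and 1177 CPM, 17.4-fold (10.6 to 30.7) higher with IL-1β, but at 1113, 3585, 2791 and 1044 CPM with those barcodes, 3.22-fold higher. With IL-1β, cells with 2 or more fibroblast markers had 0 to 117 Timp1 UMIs each. Cells with 2 or more pericyte and fewer than 2 fibroblast markers had 0 to 30. The part of cell makeup in this ratio was not tested. Mmp9 had 60 UMIs with IL-1β from 2 cells, and Saa3, an acute-phase protein, 269 UMIs from 3 cells, of which 1 cell held 98.5%.

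The promoters of 4 of the 8 genes most raised by IL-1β were in the RefSeq table, and each held the letters of the NF-κB site within 250 bases before the start, against 3.899% of the 32851 promoters of that table. Both strands were searched, and a match is a description of the letters, not of binding. They are shown because the 4 genes were raised together (RefSeq, GRCm38.p6, 5′ to 3′ in the direction of the gene). Capitals mark the motif, and in the 3 CXC genes it reads as a match on both strands, shifted by 1 base.
Cxcl1, chr5:90891145-90891204, plus strand: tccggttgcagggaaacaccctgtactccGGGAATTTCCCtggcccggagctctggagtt
Cxcl2, chr5:90903773-90903832, plus strand: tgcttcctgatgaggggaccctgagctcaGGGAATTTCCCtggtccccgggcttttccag
Cxcl3, chr5:90785999-90786058, plus strand: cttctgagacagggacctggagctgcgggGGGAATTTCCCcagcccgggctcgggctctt
Il6, chr5:30013041-30013100, plus strand: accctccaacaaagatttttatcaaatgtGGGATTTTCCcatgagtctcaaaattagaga

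**Figure D2:**
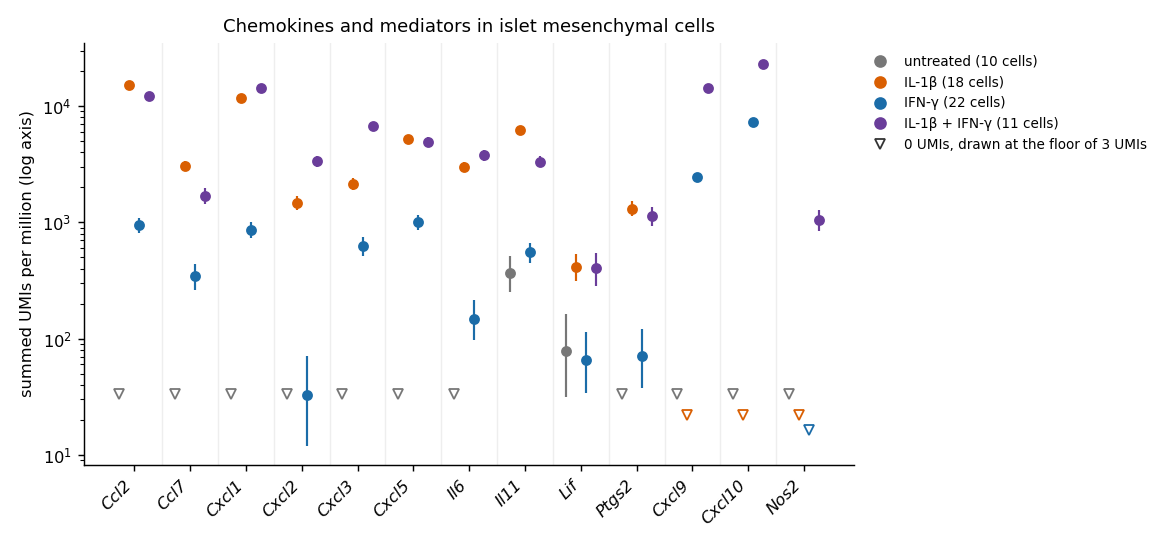
Levels in CPM (log axis) of chemokines, cytokines and enzymes in the mesenchymal cells of each library, with exact Poisson 95% intervals, and open triangles where no UMI was found. Ccl2, Cxcl1 and Il6 were high in both libraries with IL-1β, Cxcl9 and Cxcl10 in both libraries with IFN-γ, and Nos2 only in the library with both cytokines (1043 CPM).

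Genes lower with IL-1β by 4-fold or more had lower counts. They included 2 of 4 measured genes of the YAP and TGF-β target list, beside 3.11% of all genes. Of the collagen and core matrix list without the rule markers 0 of 18 measured genes were lower and 0 higher. Of the 8 genes with the smallest ratios, 4 stayed past 4-fold with the barcodes above 4000 genes and 5 after thinning to 2000 UMIs per cell. Ctgf, a matricellular target of YAP and TGF-β, had 40, 6, 151 and 13 UMIs and stood at 448, 44.2, 825 and 134 CPM, 10.1-fold (4.27 to 29.2) lower with IL-1β. Cyr61, a relative of it, stood at 425, 73.7, 147 and 114 CPM, 5.77-fold (2.82 to 12.99) lower. Nr2f2, the nuclear receptor COUP-TFII of veins and stroma, was found in 7, 4, 15 and 4 cells and was 9.49-fold (3.28 to 37.5) lower. Cygb, the cytoglobin of stellate cells and fibroblasts, stood at 291, 14.7, 289 and 41.3 CPM, 19.7-fold (4.94 to 172) lower with IL-1β. Aspn, the proteoglycan asporin, had 21, 1, 10 and 0 UMIs, 31.9-fold (5.13 to 1319) lower. Timp3 stood at 593, 118, 459 and 609 CPM, 5.03-fold (2.83 to 9.43) lower. Including the barcodes above 4000 genes, Ctgf was 2.96-fold lower, Cyr61 2.36-fold, Nr2f2 2.797-fold, Cygb 2.33-fold, Aes 2.17-fold and Timp3 1.21-fold, the last at 266, 220.3, 349 and 544 CPM. Aes (22.8-fold, 3.51 to 959), Slc12a2 (11.4-fold, 2.65 to 103) and the non-coding AY036118 (12.2-fold, 3.69 to 63.04) were lower at fewer than 30 UMIs in either library. Cck, the hormone cholecystokinin, had 36, 0, 4 and 5 UMIs and was at least 18.2-fold lower, from 2 untreated cells. In cells with 2 or more pericyte markers, Ctgf stood at 404, 59.96, 1116 and 0 CPM and Nr2f2 at 269, 39.97, 264 and 48.4 CPM, both lower in the pair of libraries with IL-1β than in the other pair.

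IFN-γ against untreated cells gave 106 of 1742 measured genes higher by 4-fold or more (6.08%) and 30 lower (1.72%). These counts were 252 and 29 with the barcodes above 4000 genes, and 25 and 5 after thinning to 2000 UMIs per cell. Of the raised genes, 33 stood on the lists of guanylate-binding proteins (8), the MHC class I pathway (9), antiviral effectors (11) and chemokines (5), 44 stood on any list, and the others on none. The list of guanylate-binding proteins (GBPs) and immunity-related GTPases (IRGs), which act on the membranes around intracellular microbes, summed to 89.5, 162, 11322 and 10834 CPM. Of its 11 measured genes 8 were past 4-fold and higher, with a median log2 ratio of 4.36 against 0.25 over all genes measured.

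Gbp2 (chr3:142620602-142638008, plus strand) stood at 11.2, 118, 3053 and 3222 CPM and was found in all 22 cells with IFN-γ. It was 273-fold (48.8 to 10794) higher than in untreated cells, where it had 1 UMI. Iigp1 stood at 0, 0, 3659 and 3480.4 CPM, again in all 22 cells, at least 109-fold higher. Gbp3, with 1, 1, 140 and 72 UMIs, was 68.3-fold (12.1 to 2718) higher and was likewise found in all 22 cells. Igtp stood at 0, 0, 928 and 671 CPM, Ifi47 at 0, 14.7, 808 and 733 CPM and Irgm1 at 44.8, 14.7, 797 and 702 CPM. Ifi47 was found in every cell of both libraries with IFN-γ, whereas Igtp was found in 20 of 22 and 9 of 11 and Irgm1 in 19 of 22 and 11 of 11. Neither the untreated nor the IL-1β library had more than 16 UMIs of any one of them. Free β-cell RNA would give 5.53 CPM of Gbp2 with IFN-γ.

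Cxcl10 (chr5:92346638-92348889, minus strand) and its neighbour Cxcl9, ligands of CXCR3, a chemokine receptor of T cells, had no UMI in the cells without IFN-γ, though with the barcodes above 4000 genes they stood at 232 and 4.84 CPM with IL-1β. Cxcl10 stood at 7253 CPM (6868 to 7654) with IFN-γ, in 16 of 22 cells, at least 216-fold higher. Cxcl9 stood at 2441 CPM (2220.2 to 2679) in 11 of 22 cells, at least 72.7-fold higher. Cells without a UMI of these chemokines thus had UMIs of Gbp2 and Iigp1. In the kept cells the IL-1β-type chemokines with IFN-γ came mostly from 1 cell, with 3722 genes, all 6 markers and no pericyte or Schwann cell marker. This cell held 96.5% of the Ccl2, 98.7% of the Cxcl1 and 99.5% of the Cxcl5 UMIs of its library, and 226 of the 1328 Cxcl10 UMIs. Ccl2 and Cxcl3 were past 4-fold with IFN-γ (at least 28.1-fold and at least 18.5-fold), with 78.9% of the Cxcl3 UMIs in that cell. So was Il6 (at least 4.39-fold), with 74.1% there, but at 2.23-fold when the barcodes above 4000 genes were included. In the cells with pericyte markers Ccl2 stood at 35.1 CPM with IFN-γ. This concentration depended on the gene limit, since with the barcodes above 4000 genes Ccl2 had 425 UMIs in 16 of 40 cells and Ccl7 128 UMIs in 11.

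The MHC class I pathway, which presents peptides to CD8 T cells, summed to 1791, 2837, 7717 and 9161 CPM. With IFN-γ 9 of its 13 measured genes were past 4-fold and higher (median 2.97), beside 6.08% of all genes (median 0.25). Tap1, a subunit of the peptide transporter, stood at 0, 7.37, 333 and 537 CPM, at least 9.92-fold higher. Psmb8, a catalytic subunit of the immunoproteasome, stood at 33.6, 51.6, 901 and 950.1 CPM, 26.8-fold (9.03 to 131) higher and in all 22 cells. Psmb9 (20.99-fold, 3.57 to 848), Psmb10 (7.81-fold, 3.21 to 24.7) and the activator subunit Psme2 (5.18-fold, 2.93 to 9.98) were higher too. The non-classical H2-T23 stood at 33.6, 0, 393 and 578 CPM, 11.7-fold (3.85 to 58.1) higher. With the barcodes above 4000 genes, Psme2 was 3.296-fold and H2-T23 3.87-fold higher, under 4-fold. Psmb8 then stood at 73.9, 62.9, 529 and 987 CPM, a smaller ratio with IFN-γ that stayed past 4-fold. The ratio of Psmb9 was larger, from 4.92 CPM without treatment and 192 CPM with IFN-γ. The heavy chains H2-K1 (358, 508, 972 and 1167 CPM) and H2-D1 (459, 604, 781 and 1260.0 CPM) and the light chain B2m (571, 1105, 1682 and 1962 CPM) stayed under 4-fold, at 2.71-fold (1.86 to 4.09), 1.702-fold (1.195 to 2.47) and 2.95-fold (2.19 to 4.05) with IFN-γ. Related MHC class I genes can share reads, so counts of single heavy chains are uncertain. MHC class II genes, listed as 8, had 0, 0, 5 and 3 UMIs in all, with Ciita, H2-Aa and H2-Eb1 at 0 in every library.

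Of the 13 genes of the JAK and STAT list 6 were measured. Beside 6.08% of all genes, 3 of these 6 were past 4-fold and higher with IFN-γ, Irf1 and Socs1 among them. Irf1, a transcription factor of interferon-induced genes, stood at 11.2, 14.7, 333 and 413 CPM, 29.8-fold (5.15 to 1195) higher with IFN-γ. Socs1, the inhibitor of JAK kinases, had 0, 3, 78 and 28 UMIs and was at least 12.7-fold higher, whereas Socs3 had 1, 6, 10 and 9 UMIs. The receptor chains Ifngr1 and Ifngr2 stood at 44.8, 73.7, 43.7 and 30.98 CPM and 224, 155, 98.3 and 145 CPM. Jak1 stood at 213, 206, 311 and 279 CPM. Among antiviral effectors 11 of 15 measured were past 4-fold (median 2.42), beside the same 6.08% of all genes (median 0.25). Isg15, a ubiquitin-like modifier, stood at 11.2, 81.05, 776 and 1064 CPM, 69.3-fold (12.2 to 2756) higher and in all 22 cells. Ifit3, which binds viral RNA complexes, was 36.6-fold (6.37 to 1465) higher, Samhd1, a nucleotide hydrolase, 32.7-fold (5.67 to 1311), and Mndal, a DNA-binding protein, 43.4-fold (11.8 to 361). Rsad2 had 0, 0, 0 and 1 UMIs and Mx1 none. Ifitm3, abundant in every library, stood at 2540.4, 3161, 4823 and 8128 CPM. With the barcodes above 4000 genes Irf1 stood at 24.6, 12.1, 228 and 356 CPM and Mndal at 49.2, 53.3, 463 and 681 CPM. Their ratios with IFN-γ, and those of Isg15, Ifit3 and Samhd1, were then smaller but still past 4-fold. Socs1 then stood at 4.92 CPM without treatment and 379 CPM with IFN-γ.

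Of the 8 genes most raised by IFN-γ, 7 had a promoter in the RefSeq table, and 6 of these held the letters of the interferon-stimulated response element (ISRE, GAAA, any 2 bases and GAAA, on either strand) within 250 bases before the start, against 2.98% of all promoters in the table. None of the 7 held the STAT site called GAS (TTC, any 3 bases and GAA), found in 7.02% of all promoters. Irf1, from the JAK and STAT list, did hold it. Of the genes most lowered by IFN-γ, 1 of 7 promoters held the ISRE letters. The stretches below, capitals marking ISRE, GAS or NF-κB letters, are shown for genes raised with IFN-γ. Isg15 holds 3 ISRE matches and Gbp3 2, each overlapping the next, whereas Ifit3 holds 2 apart from each other. Cxcl10 holds 1 ISRE followed by 2 NF-κB matches, and Irf1 holds 1 GAS followed by 1 NF-κB match. All are RefSeq, GRCm38.p6, 5′ to 3′ in the direction of the gene.
Gbp3, chr3:142559969-142560019, plus strand: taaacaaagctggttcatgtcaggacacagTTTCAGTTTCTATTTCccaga
Ifit3, chr19:34583364-34583425, plus strand: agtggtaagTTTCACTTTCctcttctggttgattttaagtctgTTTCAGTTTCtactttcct
Isg15, chr4:156200856-156200915, minus strand: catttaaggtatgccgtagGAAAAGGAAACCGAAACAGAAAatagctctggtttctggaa
Cxcl10, chr5:92348979-92349109, minus strand: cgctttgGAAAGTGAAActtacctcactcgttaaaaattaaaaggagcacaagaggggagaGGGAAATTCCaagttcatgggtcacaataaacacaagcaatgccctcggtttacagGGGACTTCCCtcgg
Irf1, chr11:53769904-53770013, plus strand: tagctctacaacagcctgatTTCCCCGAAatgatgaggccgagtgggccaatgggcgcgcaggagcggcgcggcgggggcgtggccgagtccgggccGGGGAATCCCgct

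Of the 8 genes with the smallest ratios with IFN-γ, 5 stayed past 4-fold with the barcodes above 4000 genes, 5 after thinning to 2000 UMIs per cell and 6 without their highest cell. Igfbp5, a secreted binding protein of insulin-like growth factors (chr1:72857932-72874884, minus strand), is not among these 8 but was also past 4-fold. It stood at 11963.5, 7618, 2256 and 1900.3 CPM, 5.304-fold (4.73 to 5.96) lower with IFN-γ and 1.57-fold (1.44 to 1.71) lower with IL-1β. In cells with pericyte markers it stood at 13886, 16528, 2793 and 3410 CPM, so the lower level with IFN-γ held there and the one with IL-1β did not. Including the barcodes above 4000 genes it stood at 5632, 3285, 737 and 2069 CPM. Procr, the endothelial protein C receptor, stood at 537, 582, 60.1 and 207 CPM, 8.94-fold (4.58 to 19.1) lower. Ppp1r15a, which reverses the phosphorylation of eIF2α, had 19, 4, 3 and 13 UMIs (12.98-fold, 3.82 to 68.5 lower). Pi15 (16.4-fold, 3.85 to 147), the focal adhesion protein Zyx (8.61-fold, 3.16 to 29.2) and the glutathione transferase Gstm1 (7.79-fold, 2.81 to 26.7) were lower at fewer than 22 UMIs without treatment. Including the barcodes above 4000 genes, Procr was 2.66-fold lower, Zyx 2.48-fold and Gstm1 2.05-fold. Calcrl, a receptor for adrenomedullin and CGRP, was 38.9-fold (6.19 to 1618) lower and Pdzd2 30.7-fold (4.73 to 1294), but 1 untreated cell held 78.9% and 86.7% of their UMIs. Cck was 18.4-fold (6.61 to 71.3) lower, from 2 untreated cells.

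Both cytokines against untreated cells gave 119 of 1275 measured genes higher by 4-fold or more (9.33%) and 77 lower (6.04%). These counts were 179 and 115 with the barcodes above 4000 genes, and 38 and 16 after thinning to 2000 UMIs per cell. The chemokines of IL-1β and of IFN-γ were present together, and their list took 81041 CPM (79258 to 82855) of all transcripts. Of 23 listed chemokines 10 were measured, all at 0 UMIs without treatment, so that the count past 4-fold (10) follows from the limit on counts. This comparison and those of the single cytokines share the untreated cells.

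Cxcl10 was the most abundant at 23031 CPM (22085 to 24007), found in all 11 cells. Its level was 3.18-fold (2.97 to 3.401) that with IFN-γ alone, and none of the 18 cells with IL-1β alone had a UMI of it, against 96 UMIs in 4 cells of that library once the barcodes above 4000 genes were counted. Cxcl9 stood at 14366 CPM (13621 to 15141) in 10 of 11 cells, 5.88-fold (5.29 to 6.56) the level with IFN-γ alone. Both CXCR3 ligands were thus higher with both cytokines than with IFN-γ, beyond counting error. Cxcl1, at 14232 CPM (13490 to 15003), was 1.21-fold (1.13 to 1.31) the level with IL-1β alone. Cxcl3 stood at 3.17-fold (2.75 to 3.65) its IL-1β level, with 56.6% of its UMIs in 1 cell. Ccl2 (12114 CPM, 11431 to 12828), Cxcl5 (4926 CPM, 4494 to 5389) and Ccl7 (1694 CPM, 1444 to 1974) were not above their levels with IL-1β alone. Counting the barcodes above 4000 genes turned this for Ccl2 (7230.4 with IL-1β and 9912 CPM with both) and Cxcl5 (4113 and 5468 CPM) but not for Ccl7 (1532 and 1249.9 CPM). Il6 stood at 3769.6 CPM (3393 to 4177), 1.26-fold (1.09 to 1.46) its IL-1β level, whereas Il11 was 1.88-fold (1.66 to 2.15) lower than with IL-1β alone. Tslp, raised by IL-1β, had no UMI. With the barcodes above 4000 genes Cxcl1 stood at 4609 CPM with IL-1β and 9668 CPM with both. Cxcl3 then stood at 755 and 4093 CPM and Il6 at 1215 and 2406 CPM, all 3 at larger ratios than in the kept cells. Il11, at 3946 and 2850 CPM, was still lower with both, by a smaller ratio.

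Nos2, the inducible nitric oxide synthase (chr11:78920787-78960254, plus strand), was found with both cytokines only. It had 0, 0, 0 and 101 UMIs, and the 101 UMIs came from 7 of 11 cells, 1 of which held 53.5%. The level was 1043 CPM (849.6 to 1267), at least 47.2-fold higher than with IL-1β alone, where 0 of 18 cells allow up to 22.1 CPM. In β cells Nos2 stood at 0, 148, 2.54 and 647 CPM, and in macrophages at 3.41, 0, 3.004 and 0 CPM. At the insulin ratio, free β-cell RNA would give 1.66 CPM in the mesenchymal cells. Endothelial cells had no Nos2 UMI in any library. Of the 7 cells with Nos2, 3 carried 2 or more pericyte markers and 1 was the cell with Schwann cell markers. With the barcodes above 4000 genes counted too, Nos2 stood at 0, 2.42, 0 and 725 CPM.

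Some genes were called past 4-fold against untreated cells with both cytokines only, but several of them had too few UMIs with a single cytokine to be measured there. Icam1, the leukocyte adhesion receptor, had 0, 5, 10 and 23 UMIs, Cd40, the costimulatory receptor, 0, 6, 12 and 43 UMIs, and Cd274, the checkpoint ligand PD-L1, 0, 0, 18 and 28 UMIs. Their ratios to untreated cells were at least 7.08-fold, at least 13.2-fold and at least 8.61-fold with both cytokines. Against IL-1β alone Cd40 was 10.05-fold (4.26 to 28.9) higher, and against IFN-γ alone 6.78-fold (3.51 to 14.1). Cebpd, an acute-phase transcription factor, stood at 235, 530.5, 360.5 and 1095 CPM, 4.66-fold (2.897 to 7.84) higher with both. Gja4, the gap junction protein connexin 37 and itself on the list of pericyte markers, stood at 201, 103, 492 and 1291 CPM, 6.41-fold (3.89 to 11.2) higher with both. Irf8, a relative of Irf1, had 0, 2, 16 and 25 UMIs, and the complement protease C1s1 0, 5, 8 and 16 UMIs. Of these genes, Icam1 stood at 9.85, 24.2, 74.9 and 206 CPM, Cd40 at 9.85, 33.9, 41.9 and 306 CPM, C1s1 at 4.92, 19.4, 55.4 and 106 CPM and Irf8 at 0, 4.84, 112 and 181 CPM when the barcodes above 4000 genes were counted, so that their levels with IFN-γ alone were then also more than 4-fold the untreated ones. The metallothionein Mt1, which binds zinc, stood at 55.96, 634, 1032 and 1487 CPM and Mt2 at 0, 118, 197 and 764 CPM, Mt1 past 4-fold in all 3 comparisons and Mt2 with IFN-γ and with both. With the barcodes above 4000 genes Mt1 stood at 768, 387, 586 and 1499.9 CPM, past 4-fold in no comparison and lower with each single cytokine than without treatment, and Mt2 at 54.2, 89.6, 139 and 699.9 CPM, past 4-fold only with both cytokines. Sod2 reached 3584 CPM (3217 to 3981), 2.002-fold (1.69 to 2.37) its level with IL-1β alone. The GBP and IRG list was not higher than with IFN-γ alone (10834 against 11322 CPM), but was higher with the barcodes above 4000 genes (10674 against 8479 CPM).

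Genes lower with both cytokines included 3 of 14 measured genes of the collagen and core matrix list without the rule markers, beside 6.04% of all genes. They were Col15a1, Fbn1 and the laminin chain Lamb1, the last only 3.35-fold lower with the barcodes above 4000 genes. Of the pericyte marker list 2 of 5 measured were lower and 1, Gja4, was higher. Rgs5, the G-protein regulator that marks pericytes, stood at 1209, 339, 415 and 114 CPM and was found in 9, 10, 14 and 5 cells, 10.6-fold (5.72 to 21.9) lower with both. In cells with 2 or more pericyte markers, a set that Rgs5 helps to define, it stood at 1453, 719, 430.4 and 96.7 CPM. Des, the intermediate filament desmin, had 20, 12, 28 and 2 UMIs (10.8-fold, 2.63 to 95.6 lower with both, and 3.05-fold with the barcodes above 4000 genes). Csrp2, an actin-binding LIM protein, had 32, 62, 61 and 3 UMIs (11.6-fold, 3.62 to 58.99 lower), with 56.2% of the untreated UMIs in 1 cell. Sdc2, a heparan sulfate proteoglycan, had 20, 10, 23 and 1 UMIs and Col15a1, a basement membrane collagen, 17, 18, 23 and 1 UMIs. The same dependence on 1 untreated cell held for these (65% and 76.5%), and in cells with pericyte markers Col15a1 stood at 53.8, 139.9, 123 and 0 CPM and Sdc2 at 94.2, 39.97, 132 and 0 CPM. Scd2 (16.3-fold, 2.501 to 684 lower), Cysltr2 (17.3-fold, 2.69 to 727) and Pdzd2 (16.3-fold, 2.501 to 684) had 1 UMI each with both cytokines. Of the 8 genes with the smallest ratios, 7 stayed past 4-fold with the barcodes above 4000 genes. Only 3 did in cells with pericyte markers, 3 without their highest cell, 3 after thinning to 2000 UMIs per cell and 2 with at least 4 rule markers.

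The matrix outside the 6 rule markers, 23 genes, summed to 10744, 11906.5, 12136 and 7694 CPM, lowest with both cytokines. The untreated sum leaned on 1 cell with fibroblast markers, where these genes took 2.32% of 15036 UMIs. They took 0.416% to 1.38% in the other untreated cells and 0.429% to 1.16% in the cells with both cytokines. With the barcodes above 4000 genes the sums were 11851, 12130, 12402 and 8768 CPM. Sparc, the most abundant of the 23 genes, stood at 2753, 2719, 3321 and 2024 CPM. Col4a1, of the basement membrane, stood at 727, 855, 579 and 630.0 CPM and Col5a2, a minor fibrillar collagen, at 851, 1356, 1731 and 939.8 CPM. Serpinh1, the collagen chaperone, stood at 1018, 1437, 1398 and 909 CPM. Col18a1, Bgn and Col6a3 likewise stayed under 4-fold in all comparisons. Fbn1, a microfibril protein, had 25, 42, 56 and 3 UMIs and was 9.03-fold (2.76 to 46.7) lower with both. Among the rule markers, whose sampling the rule affects, Col1a2 was 12.6-fold (6.595 to 26.9) and Col3a1 4.57-fold (3.299 to 6.45) lower with both cytokines, but in cells with pericyte markers they stood at 202, 1219, 1309 and 169 CPM and 982, 2918, 3347 and 701 CPM, since 1 untreated cell with fewer than 2 pericyte markers held 87.1% and 62.4% of their untreated UMIs. When the barcodes above 4000 genes were included, Col1a2 was 3.92-fold and Col3a1 2.82-fold lower. Mgp was lower in all treated libraries, by 9.498-fold (8.79 to 10.3) after IL-1β alone, by 4.65-fold (4.41 to 4.902) after IFN-γ alone and by 6.02-fold (5.59 to 6.49) after the pair. In cells with pericyte markers it stood at 61263, 7315, 16277.5 and 16856.5 CPM. Per cell, Mgp had a lowest, median and highest level of 4522, 50149.5 and 186115 CPM without treatment and 0, 3547 and 34457 CPM with IL-1β, so the cells overlapped.

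**Figure D3:**
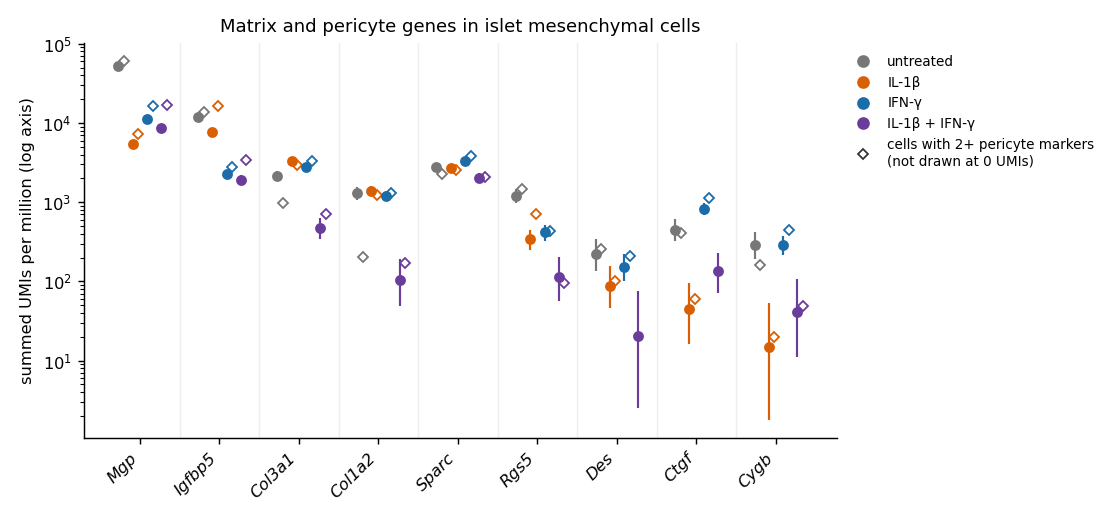
Levels in CPM (log axis) of matrix and pericyte genes in all mesenchymal cells (circles with exact Poisson 95% intervals) and in cells with 2 or more pericyte markers (diamonds). Mgp stood at 51715 CPM without treatment and 8593 CPM with both cytokines in all cells, and for Col3a1 and Col1a2 the untreated diamond lies below the circle.

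Responses differed from cell to cell for chemokines more than for GTPases. The chemokine list took a lowest, median and highest share of a cell's UMIs of 0%, 0% and 0.02% without treatment. It took 0.0261%, 3.54% and 15.3% after IL-1β alone, 0.0366%, 0.374% and 6.62% after IFN-γ alone and 1.97%, 5.52% and 21.8% after the pair. The GBP and IRG list took 0.709%, 1.099% and 2.01% with IFN-γ and 0.316%, 1.22% and 1.46% with both, against highest values of 0.0302% without treatment and 0.086% with IL-1β, so that for this list the libraries with and without IFN-γ did not overlap. UMIs of Ccl2, Cxcl1 and Il6 were found together in 12 of 18 cells with IL-1β and 7 of 11 with both, and every cell of both libraries had at least 1 of the 3. In 1 cell with IL-1β this was 2 Cxcl1 UMIs only, and free RNA from other mesenchymal cells was not estimated. Cxcl9 and Cxcl10 occurred together in 8 of 22 cells with IFN-γ and 10 of 11 with both. Cxcl10 and Cxcl1, of different cytokines, occurred together in 10 of 11 cells with both. Over single cells, Ccl2 had a lowest, median and highest level of 0, 11136 and 57853.5 CPM with IL-1β and 0, 9000 and 35536 CPM with both. Cxcl10 had 0, 2646 and 36190.5 CPM with IFN-γ and 2647, 19462 and 52093 CPM with both. Cells with pericyte markers and the other cells both carried Ccl2, Il6 and Cxcl10. With IL-1β, Ccl2 stood at 12790.5 CPM in the 7 cells with pericyte markers and 16735 CPM in the other 11, Il6 at 3597 and 2638 CPM, and Cxcl5 at 1759 and 7306 CPM. Of the cells with pericyte markers, 1 that also had 2 fibroblast markers held 85 Cxcl5 UMIs. The rest of them had at most 2 each. With both cytokines, Cxcl10 stood at 25514.5 and 21179.6 CPM and Nos2 at 1717 and 541 CPM. The Nos2 level in cells with pericyte markers leaned on 1 cell with 54 UMIs. The rest of them had 0 to 10 Nos2 UMIs each, and the cells with fewer than 2 pericyte markers 0 to 12. Of the 4 cells with Schwann cell markers, the 1 with IL-1β had 0 Ccl2 and 6 Cxcl1 UMIs, and the 1 with both cytokines had 347 Ccl2 and 329 Cxcl10 UMIs.

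**Figure D4:**
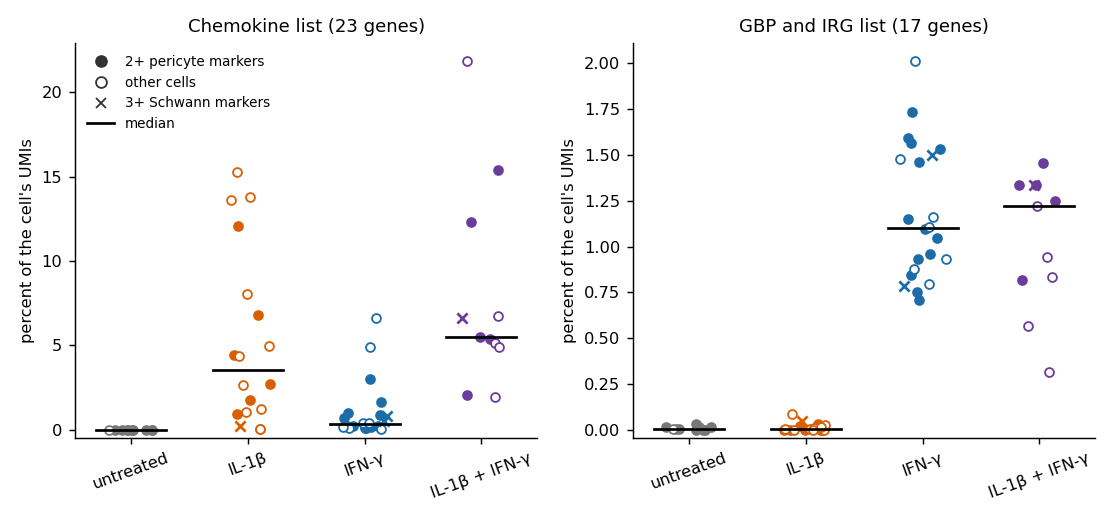
Share of each mesenchymal cell's UMIs (vertical axis, percent) taken by the chemokine list and by the GBP and IRG list, with 1 point per cell, black lines at the medians and symbols for pericyte and Schwann cell markers. The chemokine share spread up to 21.8% with both cytokines, while the GTPase share was 0.316% or more in every cell with IFN-γ and 0.086% or less in the others.

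The mesenchymal cells were set beside endothelial cells, macrophages and β cells of the same libraries, each again with 1 library per condition and no test. Endothelial cells numbered 106, macrophages 138 and β cells 4556. The chemokine list summed to 109, 729.7, 12966 and 24165.5 CPM in endothelial cells, 6153, 6354, 7903 and 9499 CPM in macrophages and 35.5, 696, 128 and 3697 CPM in β cells. With IL-1β alone the mesenchymal level of 39838 CPM was thus above the other 3 classes by more than their counting intervals. Il6 with IL-1β stood at 2991 CPM in mesenchymal cells and at 0, 4.78 and 0.562 CPM in endothelial cells, macrophages and β cells. Ccl2 stood at 297, 105 and 136 CPM in these, Il11 at 33.9, 0 and 0.45 CPM and Ptgs2 at 0, 4.78 and 3.37 CPM. For IFN-γ the order was another one. Cxcl10 with IFN-γ stood at 7253 CPM in mesenchymal cells and 9076, 1691 and 76.1 CPM in the others, and Gbp2 at 3053 CPM and 8423, 3130.1 and 819 CPM, both highest in endothelial cells. Cd274 with IFN-γ stood at 98.3 CPM against 1049.9, 459.6 and 238 CPM. The MHC class I list summed to 5640.1, 6134.5, 16005 and 20091 CPM in endothelial cells, above the mesenchymal sum in every library. MHC class II genes reached 14377 CPM in macrophages with IFN-γ and 27.3 CPM in mesenchymal cells.

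**Figure D5:**
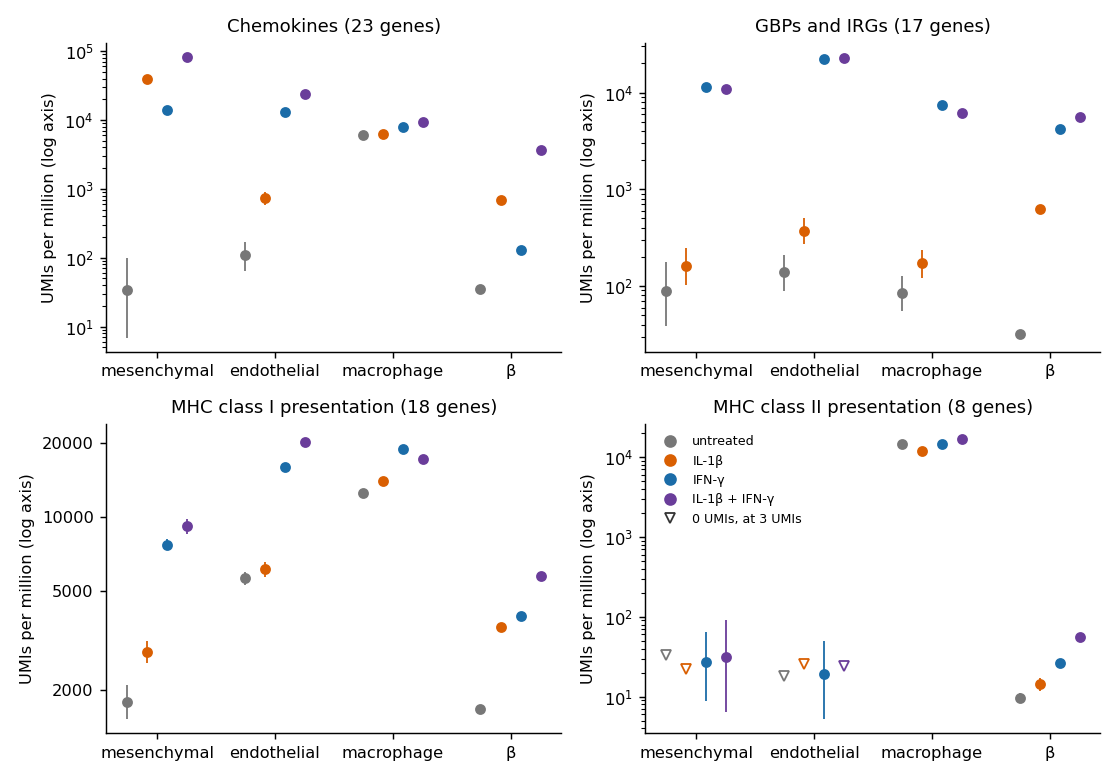
Levels in CPM (log axes) of 4 gene lists in mesenchymal cells, endothelial cells, macrophages and β cells of each library, with exact Poisson 95% intervals and open triangles at 0 UMIs. Chemokines in mesenchymal cells stood at 33.6 CPM without treatment and 81041 CPM with both cytokines, and MHC class II stayed near 0 outside macrophages.

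Other lists gave smaller or no differences. Of the IL-1 receptor list none of 13 genes reached the counts to be measured, and Il1r1, the signalling receptor, stood at 157, 58.9, 43.7 and 20.7 CPM in 8, 6, 6 and 2 cells. Irak3, a brake on the pathway, had 0, 13, 1 and 5 UMIs. Contractile genes summed to 2473, 1599, 1901 and 1322 CPM, and Acta2, smooth muscle actin, stood at 571, 479, 508 and 227 CPM. None of the 5 contractile genes measured with IFN-γ, and none of the 3 measured in the other comparisons, passed 4-fold. Heat shock genes summed to 2932, 3235, 3987 and 4369 CPM with none past 4-fold. Among immediate early genes, induced within minutes by stress or dissociation, Ier3 stood at 2238, 4649, 1207 and 5246 CPM and Junb at 1018, 435, 459 and 423 CPM. Ier2 (425, 103, 147 and 82.6 CPM) was lower by 4-fold or more with IL-1β and with both, and Btg2 (179, 29.5, 38.2 and 41.3 CPM) in all 3 comparisons, but neither was in any of them with the barcodes above 4000 genes, where Ier2 was 2.28-fold and 3.09-fold lower and Btg2 stood at 78.8, 29.05, 28.5 and 68.7 CPM. Of growth factors, Vegfa stood at 884, 582, 268 and 279 CPM, Pdgfa at 492, 825, 1152 and 1074 CPM and Fgf2 at 246, 155, 49.2 and 41.3 CPM, the last 5.01-fold (2.22 to 12.4) lower with IFN-γ and 5.96-fold (2.02 to 23.8) lower with both. Including those barcodes, Fgf2 was 1.59-fold lower with IFN-γ and 4.84-fold lower with both. Igfbp7, abundant in all libraries, stood at 7330.3, 4804, 5576 and 4462 CPM. Spp1, the matrix and cytokine-like protein osteopontin, which stood on the ductal list, reached 1869, 6904, 5669 and 816 CPM, with 52.7%, 63.6%, 49.3% and 87.3% of its UMIs in 1 cell of each library, and the other ductal markers summed to at most 7 UMIs. Acinar markers summed to 157, 51.6, 76.5 and 51.6 CPM and Schwann cell markers to 11.2, 214, 306 and 207 CPM. Their part in the other results was not tested.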

How the data were processed

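Islets were dissociated after treatment and loaded on a 10x Genomics droplet system (kit version 2 in the labels, version 3 in the study's methods). The authors demultiplexed and counted with Cell Ranger on mm10, per the submitters' processing notes, and the matrix headers give software version 3.0.0. The matrices they deposited hold UMI counts of 31053 genes without normalization, for 3486, 2911, 3694 and 2480 barcodes with 50731370, 20056630, 31209339 and 25716645 UMIs.

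Counts were summed over the mesenchymal cells of each library (pandas 2.3.3 and numpy 2.4.6 under Python 3.11.15) and intervals computed with scipy 1.17.1. With 1 library per condition no test was possible. A gene was measured with at least 15 UMIs in the higher library, in at least 20% of its cells, and called at a ratio of 4. Intervals are exact at 95%. Genes are named from the 8 largest and 8 smallest ratios per comparison, without rule genes, mitochondrial and endocrine genes, and from gene lists. Members and lists were chosen with earlier results of these data known. Comparison classes needed 2 of the 3 endothelial or macrophage markers, or 10% insulin UMIs. No doublet caller was run, since the upper limit of 4000 genes served that end. The ratio and interval code was tested on simulated data. Positions are from GENCODE M21 (31011 identifiers matched), promoters from RefSeq. Alternatives, run 1 at a time, changed the gene, mitochondrial, marker and hormone limits, the depth, the averaging, the totals and the count limits.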

Additional observations from a re-analysis of the deposited data

Results flagged for a closer look

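In 3 genes the mesenchymal cells and another class were past 4-fold in opposite directions under the same treatment, and in none was the difference between the classes tested. Prss23, a serine protease, had a log2 ratio of 3.55 in mesenchymal cells with IFN-γ (4 and 96 UMIs without and with it) and -3.24 in endothelial cells (53 and 7 UMIs). Rgs5 had a log2 ratio of -3.41 in mesenchymal cells with both cytokines (108 and 11 UMIs) and 3.58 in endothelial cells (5 and 45 UMIs). Ero1l, an oxidase of the endoplasmic reticulum, had a log2 ratio of 2.56 in mesenchymal cells with both cytokines (10 and 64 UMIs) and -2.89 in macrophages (49 and 6 UMIs).

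Barcodes above 4000 genes that met the marker limits were left out of the comparisons. They numbered 4 without treatment, 13 with IL-1β and 18 with IFN-γ, each above the limit of 3 that a count of 0 allows, and 3 with both cytokines. Their median depth was 25407, 20563, 27140 and 18325 UMIs. Counting them in, Cxcl10 stood at 0, 232, 4940.4 and 18029.7 CPM, Cxcl1 at 54.2, 4609, 244 and 9668 CPM and Mgp at 23347, 2718, 3733 and 5331 CPM.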

How the results depend on the processing

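The number of mesenchymal cells was 99 with no upper gene limit, 89 with at least 2 markers and 26 with at least 4, and 62 or 61 with the other mitochondrial and hormone limits. Counts of genes past 4-fold that moved by more than 1.5 times were the following. With no upper gene limit the counts were 123 higher with IL-1β, 252 higher with IFN-γ and 179 higher with both cytokines. With at least 4 markers the counts were 30 lower with IL-1β, 61 higher with IFN-γ, 34 higher with both cytokines and 41 lower with both cytokines. Thinned to 2000 UMIs per cell, which left out 1 cell and lowered the counts of each gene, the counts were 29 higher with IL-1β, 10 lower with IL-1β, 25 higher with IFN-γ, 5 lower with IFN-γ, 38 higher with both cytokines and 16 lower with both cytokines. With at least 30 UMIs, the counts were 36 higher with IL-1β, 14 lower with IL-1β, 65 higher with IFN-γ, 10 lower with IFN-γ, 72 higher with both cytokines and 24 lower with both cytokines. Without each gene's highest cell in each library the counts were 20 lower with IL-1β, 11 lower with IFN-γ and 43 lower with both cytokines. In cells with 2 or more pericyte markers the counts were 31 higher with IL-1β and 78 higher with both cytokines. In the other cells, with 1 untreated cell, the counts were 11 lower with IL-1β, 48 higher with IFN-γ, 13 lower with IFN-γ, 73 higher with both cytokines and 17 lower with both cytokines. The mean of the cells' own levels, a 20% mitochondrial limit, totals without hormone and mitochondrial genes, no limit on the share of cells, and leaving out the 4 cells with Schwann cell markers (added after seeing the data) moved none of these counts by more than 1.5 times. Among the genes named by their rank 3 changed sign. Sdc2 with both cytokines had a log2 ratio of 0.45 after thinning, Col15a1 0.43 in cells with pericyte markers and Pdzd2 0.63 without its highest cell. In these the treated library had no UMI left and was set at the level of 3 UMIs. Among list genes past 4-fold, Mt1 changed sign with no upper gene limit, at a log2 ratio of -0.99 with IL-1β and -0.39 with IFN-γ, and Timp1 with both cytokines, at -0.09. Of the list and rank genes past 4-fold, 14 of 23 higher with IL-1β, 10 of 18 lower with IL-1β, 34 of 45 higher with IFN-γ, 8 of 13 lower with IFN-γ, 58 of 62 higher with both cytokines, 18 of 28 lower with both cytokines stayed so with no upper gene limit. In cells with pericyte markers 19 of 23 higher and 15 of 18 lower with IL-1β stayed so, and 39 of 45 higher and 11 of 13 lower with IFN-γ. With both cytokines 57 of 62 higher but only 14 of 28 lower did in those cells. The 8 genes most raised by IL-1β and the 8 most raised by both cytokines stayed past 4-fold under every alternative run on them, Tslp on 1 and 3 UMIs in cells with pericyte markers. Of the 8 most raised by IFN-γ, 7 did with at least 4 markers and 6 in the cells with fewer than 2 pericyte markers. Of the 8 most lowered by IL-1β, 4 did with no upper gene limit, 5 after thinning, 6 in cells with pericyte markers and 7 with at least 4 markers. Of the 8 most lowered by IFN-γ, 5 did with no upper gene limit, 5 after thinning, 7 by the mean of the cells' own levels, and 6 without the highest cell or in the cells with fewer than 2 pericyte markers. Of the 8 most lowered by both cytokines, 7 did with no upper gene limit, 5 in the cells with fewer than 2 pericyte markers, 3 in cells with pericyte markers, 3 without the highest cell, 3 after thinning and 2 with at least 4 markers. The cause of these changes was not tested, apart from the smaller counts. Precision is limited by the 10 untreated cells and by 1 library per condition. No paired analysis was possible because each condition has 1 library and no test was run.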
